A study of Mus musculus with 4 samples.

Results

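H3K27ac at *Gata2* was described from the broad peaks that overlap a 150.0-kb window of mm9, from 88040000 to 88190000 on chromosome 6, by at least 1 bp. The window holds *Gata2* together with the upstream and internal segments that have been tested as its enhancers. It was set by position, and it held 22 of the 151551 peaks in the 6 deposited lists. These were 3 peaks in G1E replicate 1, 3 in G1E replicate 2 and 3 in the G1E pooled list, against 6 in G1E-ER4+E2 replicate 1, 2 in G1E-ER4+E2 replicate 2 and 5 in the G1E-ER4+E2 pooled list.

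H3K27ac ChIP-seq was carried out on mouse erythroid cells of strain 129. G1E is a progenitor line that was derived from *Gata1* knock-out embryonic stem cells and immortalized, and its 2 replicates received no treatment. G1E-ER4 is a G1E line transduced with a virus expressing GATA1-ER, a GATA1 fusion that acts when hormone is present, and its 2 replicates were treated with 10 nM estradiol (E2) for 24 h. Every sample thus lacks endogenous GATA1. Untreated G1E-ER4 cells were not analysed here, so restored GATA1 activity, the transduction and the hormone itself cannot be told apart. The labels do not say whether the replicates were separate cultures.

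GATA2 is a zinc finger transcription factor of hematopoietic stem and progenitor cells. In early erythroid precursors it binds and activates its own gene, and as GATA1 accumulates, GATA1 takes the place of GATA2 at these sites and *Gata2* is repressed, an exchange known as the GATA switch. H3K27ac is deposited by coactivators such as EP300 on nucleosomes that flank active promoters and enhancers, and its decrease commonly accompanies repression.

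Both factors recognize the GATA motif, so the sequence in front of the annotated *Gata2* starts is given here, in the direction of transcription, as the 250 bases before each of the 2 start sites that RefSeq gives on GRCm38.p6 (plus strand). The capitals mark CCAAT and its complement on the other strand.
Gata2 start site 1: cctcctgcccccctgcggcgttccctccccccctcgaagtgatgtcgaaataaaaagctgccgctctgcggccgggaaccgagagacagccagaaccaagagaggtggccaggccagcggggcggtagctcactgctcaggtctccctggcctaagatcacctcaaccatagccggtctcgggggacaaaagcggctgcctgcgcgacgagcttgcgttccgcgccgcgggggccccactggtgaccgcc
Gata2 start site 2: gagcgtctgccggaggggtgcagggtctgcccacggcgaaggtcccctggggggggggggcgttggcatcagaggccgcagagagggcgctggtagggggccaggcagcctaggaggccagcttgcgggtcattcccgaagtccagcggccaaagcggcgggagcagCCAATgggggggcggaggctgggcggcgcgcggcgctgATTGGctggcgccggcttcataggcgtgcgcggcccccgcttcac

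The GATA motif was searched on both strands as AGATAA, as AGATAG, as TGATAA and as TGATAG. It had 0 matches in either stretch, whereas 26.5% of the 32851 stretches of the same length in the RefSeq table held at least 1. CCAAT, also searched on both strands, had 2 matches before start site 2 and 0 before start site 1, and was present in 33.8% of all stretches. The G+C content was 67.2% before start site 1 and 74.0% before start site 2, against a median of 52.4% over all stretches. The start sites were not placed on mm9, so these sequences describe the gene and are not tied to a position within a peak. In the RefSeq gene order *Gata2* lies between the protein-coding genes *Rpn1* and *Dnajb8*.

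The peak lists give a fold enrichment for each peak as the authors' peak caller computed it, a ratio on a linear scale. They hold no read counts, so the depth behind each peak is unknown. The lists differed in size and scale. The replicate lists had 21557 and 23451 peaks in G1E and 29087 and 26740 in G1E-ER4+E2, and the median enrichment was 6.69 and 7.76 in the G1E replicates but 2.98 and 3.59 in the G1E-ER4+E2 replicates. For this reason an enrichment is read here against the other peaks of its own list, as the percentage of them with lower enrichment (its percentile), and enrichments are not compared between the cell lines directly.

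A broad domain and a narrower peak of the window were present in all 6 lists. The broad domain holds the tested segments Gata2R8, Gata2R3, Gata2R7, Gata2R5 and Gata2NC1 and is referred to as the *Gata2* domain. The narrower peak, about the tested segment Gata2R1, is referred to as the upstream peak. Its right border lay 64.6 kb from the left border of the *Gata2* domain in the G1E pooled list and 65.0 kb from it in the G1E-ER4+E2 pooled list. Every other peak in the window was found in some of the lists but not in all.

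**Figure D1:**
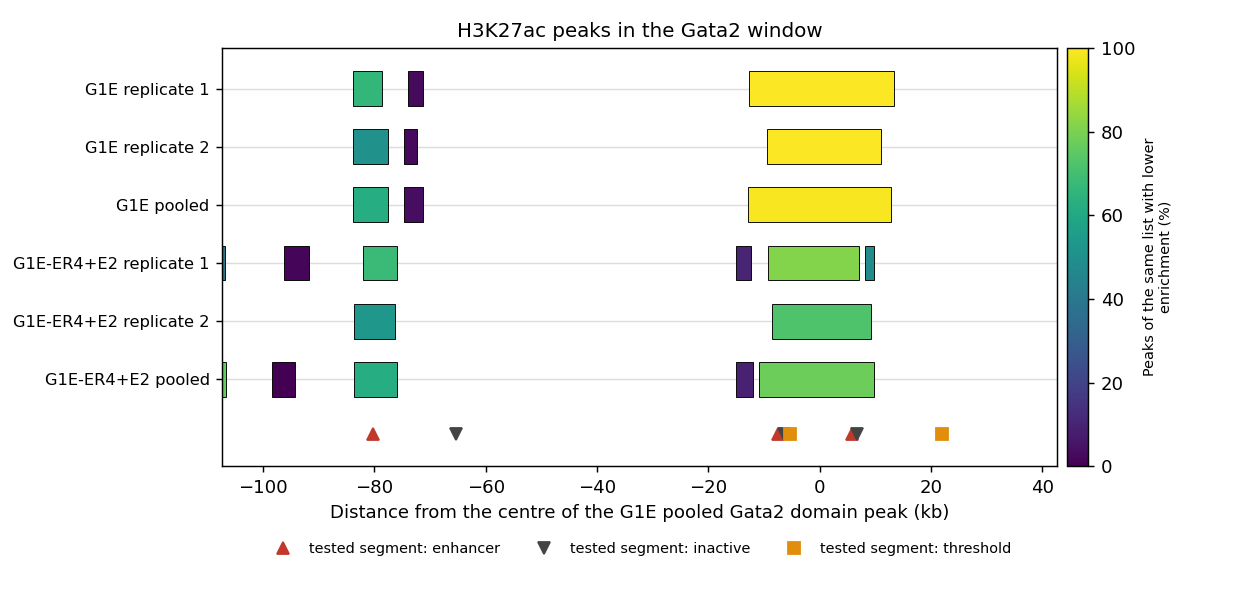
H3K27ac peaks in the 150.0-kb *Gata2* window for each of the 6 lists, as bars along the distance in kb from the centre of the *Gata2* domain of the G1E pooled list, coloured by the percentage of peaks of the same list with lower enrichment; the markers below show the tested segments inside the window by their class in the reporter assay. The *Gata2* domain and the upstream peak appear in every list, and the *Gata2* domain is above 99% in the 3 G1E lists and between 72.0% and 81.5% in the 3 G1E-ER4+E2 lists.

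The *Gata2* domain was among the most enriched peaks of the lists in G1E cells and lay in the same place, at a lower rank, in G1E-ER4+E2 cells. In G1E its enrichment was 33.1 in replicate 1 and 41.6 in replicate 2, higher than that of 99.2% and 99.5% of the peaks of those lists. In G1E-ER4+E2 its enrichment was 6.43 in replicate 1 and 6.17 in replicate 2, higher than 81.5% and 72.0% of the peaks. The percentile was thus lower in both G1E-ER4+E2 replicates than in both G1E replicates, with a mean of 99.4% ± 0.189 (SD, n = 2) in G1E and 76.8% ± 6.72 (SD, n = 2) in G1E-ER4+E2. The difference of -22.6 percentage points gave p = 0.333 in a two-sided exact permutation test, which is the smallest p that 2 against 2 samples allow, so this design cannot reach 0.05. In the pooled lists the domain ranked 208 of 24332 in G1E (99.1%) and 5898 of 26384 in G1E-ER4+E2 (77.6%). The size of this change depended on how peaks were ranked. Among the peaks of at least 10.0 kb alone, the percentile of the domain went from 99.0% to 56.9% in the pooled lists, and when all peaks were ranked by enrichment times width, it went from 99.8% to 92.2%.

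The rank of the upstream peak overlapped between the cell lines. Its enrichment was 9.92 and 7.81 in the G1E replicates, above 66.0% and 50.2% of the peaks of their lists. In the G1E-ER4+E2 replicates it was 4.25 and 3.80, above 67.9% and 53.0% of the peaks. The means were 58.1% ± 11.1 (SD, n = 2) and 60.5% ± 10.5 (SD, n = 2), and the exact permutation test gave p = 0.667 (two-sided). In the pooled lists the percentile was 61.9% in both.

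**Figure D2:**
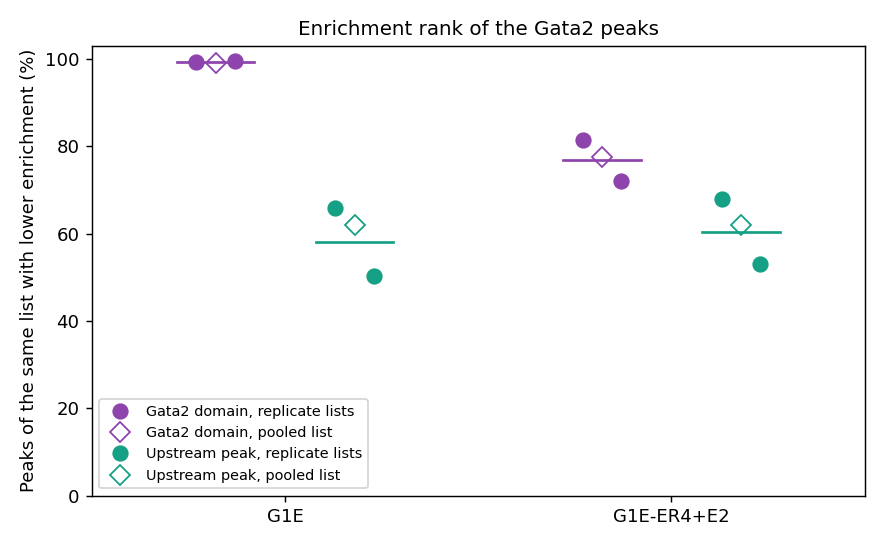
Enrichment percentile (percentage of peaks of the same list with lower enrichment) of the *Gata2* domain and the upstream peak in G1E and G1E-ER4+E2; filled circles are replicate lists, open diamonds pooled lists and horizontal lines the mean of the 2 replicates. The *Gata2* domain has a mean of 99.4% in G1E and 76.8% in G1E-ER4+E2, while the replicates of the upstream peak overlap between the cell lines.

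The enrichments of both peaks were also set beside each other within each list. The enrichment of the *Gata2* domain was 3.34 times that of the upstream peak in G1E replicate 1 and 5.33 times in G1E replicate 2. In G1E-ER4+E2 it was 1.51 times in replicate 1 and 1.62 times in replicate 2. Both G1E-ER4+E2 values lay below both G1E values, and the mean ratio was 4.34 ± 1.41 (SD, n = 2) in G1E and 1.57 ± 0.0777 (SD, n = 2) in G1E-ER4+E2. The exact permutation test again gave the smallest p possible, 0.333 (two-sided). The median enrichment was lower in the G1E-ER4+E2 lists, as given above, and the widths of the called peaks differed, and the part of either in the lower ratio was not tested.

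To set the domain beside the rest of the genome, the peaks of all 6 lists were merged into regions, and 11586 of these had a peak in all 4 replicate lists. Of them, 22.6% had a lower percentile in both G1E-ER4+E2 replicates than in both G1E replicates, and 45.4% had a higher one. The window holds or touches 3 such regions. The *Gata2* domain was of the first kind, and the upstream peak and the region across the left edge of the window were of neither. A region near the top of the G1E lists has little room to rise, and of the 513 regions at the 96th percentile or higher in both G1E replicates, 63.7% had a lower percentile in both G1E-ER4+E2 replicates. The direction of the change at the *Gata2* domain was thus shared with most regions of like rank in G1E. This concerns the direction only, and the size of the change was not compared among regions of like rank. Over the 17104 G1E pooled peaks of any rank with an overlapping G1E-ER4+E2 pooled peak, the median change was 7.59 percentage points. The highest percentile of an overlapping peak was used for it. The change was -21.5 percentage points at the *Gata2* domain.

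**Figure D3:**
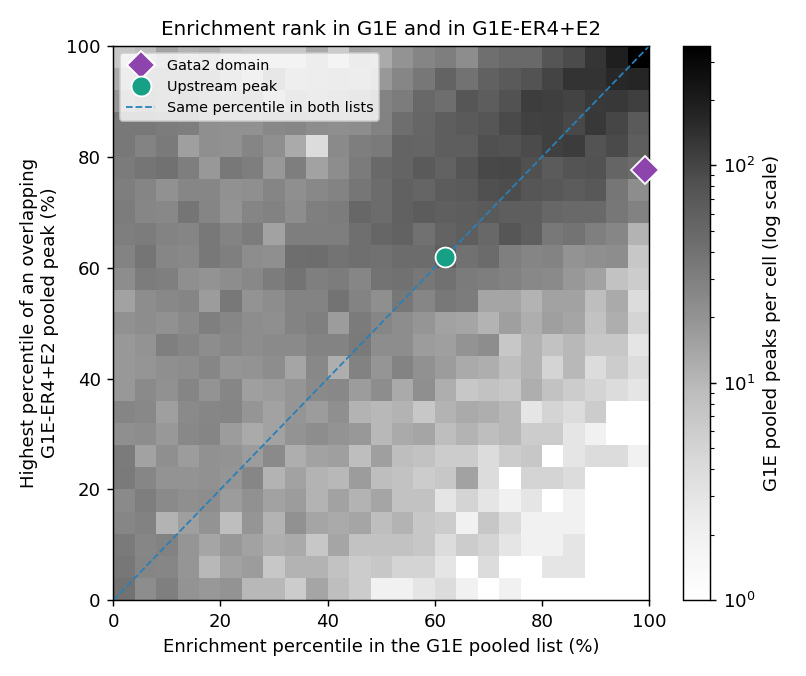
Enrichment percentile in the G1E pooled list (horizontal axis, %) against the highest percentile of an overlapping G1E-ER4+E2 pooled peak (vertical axis, %) for the 17104 G1E pooled peaks with an overlapping peak, as counts per cell of 4 by 4 percentage points on a log colour scale. The *Gata2* domain (99.1%, 77.6%) lies below the dashed line of equal percentiles, and the upstream peak (61.9% in both) lies on it.

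The *Gata2* domain was narrower in G1E-ER4+E2, with both borders farther inward in both replicates than in either G1E replicate. In G1E the domain ran from 88134601 to 88160600 in replicate 1 and from 88137801 to 88158400 in replicate 2, widths of 26.0 and 20.6 kb. In G1E-ER4+E2 it ran from 88138001 to 88154400 in replicate 1 and from 88138801 to 88156600 in replicate 2, widths of 16.4 and 17.8 kb. The left border was 2.2 kb farther inward on average, where the replicates differed by 3.2 kb in G1E and 0.8 kb in G1E-ER4+E2. The right border was 4.0 kb farther inward, where the replicates differed by 2.2 kb in each cell line. The mean width was 23.3 ± 3.82 kb (SD, n = 2) in G1E and 17.1 ± 0.990 kb (SD, n = 2) in G1E-ER4+E2, with no overlap between the cell lines (two-sided exact permutation test, p = 0.333, the smallest possible). How many other peaks differed in width in this way was not computed.

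The width of the domain depended on small peaks beside it. In G1E-ER4+E2 replicate 1, separate peaks of 2.8 kb (88132201 to 88135000) and 1.6 kb (88155401 to 88157000) stood to its left and right, at percentiles of 9.87% and 48.3%. With these the covered length of the merged region was 20.8 kb in that replicate, above the 20.6 kb of G1E replicate 2, and the cell lines then overlapped. Over the 11586 regions, 25.7% had a lower covered length in both G1E-ER4+E2 replicates and 41.3% a higher one. By this measure the region of the *Gata2* domain was of neither kind. In the pooled lists the domain was 25.8 kb in G1E, wider than 98.1% of the peaks of the list (88134401 to 88160200). It was 20.6 kb in G1E-ER4+E2, wider than 93.2% (88136401 to 88157000), and lay entirely inside the G1E domain. A separate 3.2-kb peak of that list (88132201 to 88135400) reached beyond the left border of the G1E domain, and with it the merged region covered 23.8 kb in G1E-ER4+E2 against 25.8 kb in G1E. The authors' q-value of the domain was listed at 0 in all 6 lists, as it was for 17.0% (G1E-ER4+E2 replicate 1) to 39.8% (G1E pooled) of all peaks of a list.

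**Figure D4:**
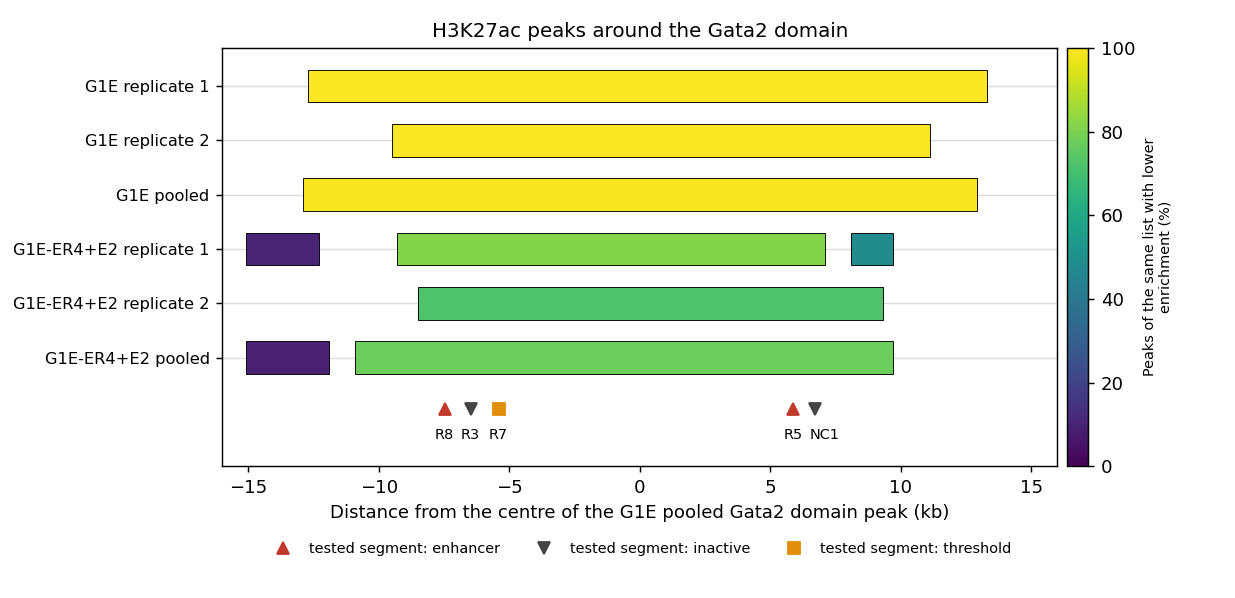
The *Gata2* domain in each list, as bars along the distance in kb from the centre of the G1E pooled peak, with the colour giving the percentage of peaks of the same list with lower enrichment; markers show the tested segments R8, R3, R7, R5 and NC1 of *Gata2* and their class. The G1E-ER4+E2 domains of 16.4, 17.8 and 20.6 kb lie within the G1E pooled domain of 25.8 kb and still contain all 5 segments.

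The right border of the upstream peak lay farther right in G1E-ER4+E2. The peak ran from 88063401 in both G1E replicates to 88068600 in replicate 1 and 88069800 in replicate 2. In G1E-ER4+E2 it ran from 88065201 to 88071400 in replicate 1 and from 88063601 to 88071000 in replicate 2. The shift of the right border was 2.0 kb on average, where the replicates of a line differed by 1.2 kb in G1E and 0.4 kb in G1E-ER4+E2. The width was 5.8 ± 0.849 kb (SD, n = 2) in G1E and 6.8 ± 0.849 kb (SD, n = 2) in G1E-ER4+E2, and the replicates overlapped (exact permutation test, two-sided, p = 0.667).

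Other peaks of the window were found apart from the *Gata2* domain and the upstream peak. A peak to the right of the upstream peak was found in both G1E replicates, from 88073401 to 88076000 in replicate 1 and from 88072601 to 88075000 in replicate 2, with enrichments of 1.65 and 1.86. These are low in their lists, at percentiles of 2.35% and 2.49%. No peak of any G1E-ER4+E2 list overlapped it. In the pooled lists, 29.7% of all G1E peaks had no overlapping G1E-ER4+E2 peak, so the loss of 1 of the 3 G1E pooled peaks of the window is near the share over all peaks. A peak farther left was found in G1E-ER4+E2 replicate 1 (88051001 to 88055600, percentile 1.20%) and in the G1E-ER4+E2 pooled list (88049001 to 88053000, percentile 0.352%), but not in G1E-ER4+E2 replicate 2 nor in any G1E list. In the pooled lists, 40.3% of the G1E-ER4+E2 peaks overlapped no G1E peak. Across the left edge of the window, the G1E-ER4+E2 pooled list had a peak from 88033201 to 88040600, of which 600 bp lie in the window, and replicate 1 had a 1.0-kb peak (88039401 to 88040400). The 3 G1E lists and G1E-ER4+E2 replicate 2 had peaks in the same merged region that ended outside the window. The peaks of that region covered 4.4 and 6.0 kb in the G1E replicates and 5.8 and 6.2 kb in the G1E-ER4+E2 replicates.

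Measured by base, most of the window inside G1E peaks was also inside G1E-ER4+E2 peaks (retained), which gives the overlap of called peaks and not the amount of H3K27ac. Of the 35.6 kb in G1E pooled peaks, 27.8 kb (78.1%) also lay in G1E-ER4+E2 pooled peaks, and over all G1E pooled peaks this share was 70.6%. The other way, the share of G1E-ER4+E2 pooled peak bases in G1E pooled peaks was 76.8% in the window and 49.3% over all peaks. The pooled lists covered 139.9 Mb in G1E and 200.5 Mb in G1E-ER4+E2. Of the single G1E pooled peaks, 96.9% of the upstream peak, 83.7% of the *Gata2* domain and 0% of the peak to the right of the upstream peak were retained. Between single replicates the retained share of the window ranged from 64.5% (G1E replicate 1 in G1E-ER4+E2 replicate 1) to 81.6% (G1E replicate 2 in G1E-ER4+E2 replicate 2). For comparison, 81.1% of the window's peak bases of G1E replicate 1 lay in peaks of G1E replicate 2, and 93.2% the other way, and the shares between the G1E-ER4+E2 replicates were 70.6% and 89.7%. The retained shares between the cell lines thus overlapped those between replicates of the same line.

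**Figure D5:**
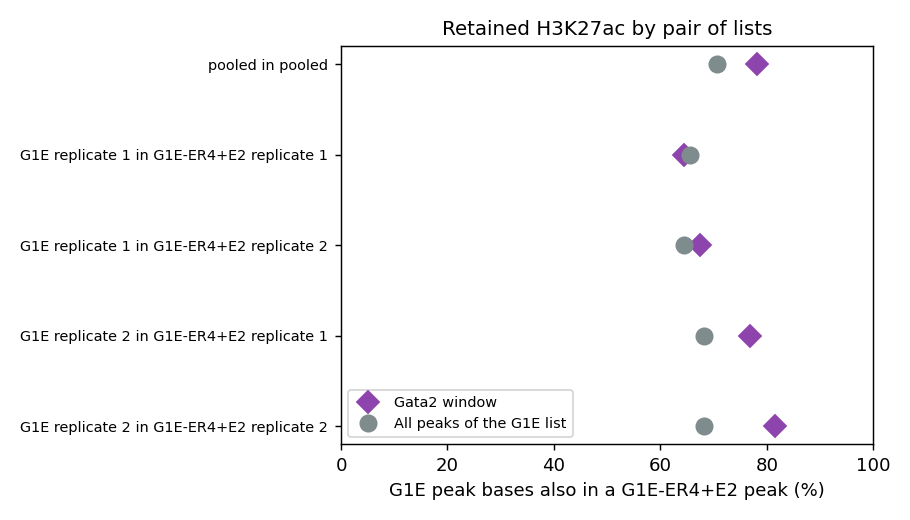
Percentage of the bases in G1E peaks that also lie in G1E-ER4+E2 peaks, for the pooled lists and each pair of replicates, in the *Gata2* window (diamonds) and over all peaks of the G1E list (circles). The window ranges from 64.5% to 81.6% over the 5 pairs and lies below the value for all peaks in 1 of them.

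With the replicates of each cell line required to be the same, 20.2 kb of the window were in peaks in all 4 replicates, 3.4 kb were in both G1E replicates and neither G1E-ER4+E2 replicate (lost), and 1.2 kb were in both G1E-ER4+E2 replicates and neither G1E replicate (gained). For a further 20.0 kb the replicates of at least 1 cell line differed from each other. The retained bases comprised 3.4 kb about Gata2R1 (88065201 to 88068600), 15.6 kb in the *Gata2* domain (88138801 to 88154400) and a stretch of 1.2 kb (88155401 to 88156600). This last stretch was in the domain except in G1E-ER4+E2 replicate 1, where it lay in the separate peak to the right. The lost bases were the 1.6 kb shared by the G1E peaks to the right of the upstream peak, 1.4 kb at the right border of the *Gata2* domain (88157001 to 88158400), and 0.2 kb each at the left borders of the domain and of the upstream peak. The gained bases were a single stretch of 1.2 kb at the right border of the upstream peak (88069801 to 88071000). The lost length was 9.4 kb without G1E replicate 2 and the gained length 9.0 kb without G1E-ER4+E2 replicate 2. The total covered length was 33.8 and 29.4 kb in the G1E replicates and 32.0 and 25.2 kb in the G1E-ER4+E2 replicates. Their means of 31.6 ± 3.11 and 28.6 ± 4.81 kb (SD, n = 2) differed by less than the spread within G1E-ER4+E2 (two-sided exact permutation test, p = 0.667). The pooled lists went the other way, with 35.6 kb in G1E and 36.2 kb in G1E-ER4+E2, and without G1E-ER4+E2 replicate 2 the difference of -3.0 kb was reversed to 0.4 kb. The replicates of the cell lines no longer overlapped, with p = 0.333 in the same exact test, when the lists were restricted to peaks at or above their median enrichment (a difference of -5.2 kb) or to q-values of at most 1e-10 (-4.4 kb). The same held at equal covered length (-6.7 kb), but there peaks were removed from the G1E-ER4+E2 lists alone, which can lower the covered length in those cells and not in G1E. In the window, the median and q-value rules removed the peak to the right of the upstream peak from the G1E replicates. In G1E-ER4+E2 they removed small peaks of replicate 1 and none of replicate 2.

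Between the upstream peak and the *Gata2* domain lay a long stretch without H3K27ac peaks in every list. It was 58.4 kb in the G1E pooled list, where it began at the peak to the right of the upstream peak, and 60.8 kb in the G1E-ER4+E2 pooled list. Over the 4 replicate lists it ranged from 58.6 to 67.8 kb.

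The study's transfection table lists 9 DNA segments named for *Gata2*, of which 7 are Gata2R segments and 8 lie in the window. In that assay a segment was placed before a reporter gene in K562 cells, a human erythroleukemia line, and classed as an enhancer, as inactive or as falling in a threshold zone between them. The classes come from that table, and the H3K27ac calls from the peaks. Overlap with a peak by 1 bp or more was taken as presence of H3K27ac.

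Gata2R1 (88066820 to 88067388), the only tested segment of the upstream peak and classed as an enhancer, lay wholly inside the peak in all 6 lists. Its distance to the left border was 3.419 kb in both G1E replicates and 1.619 and 3.219 kb in the G1E-ER4+E2 replicates. To the right border it was 1.212 and 2.412 kb in the G1E replicates and 4.012 and 3.612 kb in the G1E-ER4+E2 replicates. The segment was thus in the interior of the peak in each. The next segment, Gata2R9 (88081847 to 88082276), classed as inactive, lay in the stretch without peaks in every list. Its nearest peak was 5.846 kb away in the G1E pooled list and 10.446 kb away in the G1E-ER4+E2 pooled list.

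A group of 3 segments stood near the left end of the *Gata2* domain within 2.075 kb of each other by their midpoints. Gata2R8 (88139618 to 88140016) was classed as an enhancer, Gata2R3 (88140543 to 88141081) as inactive and Gata2R7 (88141778 to 88142006) as in the threshold zone. All 3 were entirely inside the domain in all 6 lists, although their classes differ. Gata2R8, the outermost, was 1.817 kb from the left border in G1E replicate 2 and 0.817 kb from it in G1E-ER4+E2 replicate 2, its closest approach.

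Toward the right end of the domain lay Gata2R5 (88152904 to 88153447), classed as an enhancer. Gata2R5 was inside the domain in all 6 lists. The right border was 7.153 and 4.953 kb beyond it in the G1E replicates and 0.953 and 3.153 kb beyond it in the G1E-ER4+E2 replicates, closer in both of the latter. Gata2NC1 (88153904 to 88154127), classed as inactive, lies between Gata2R5 and that border and was also inside the domain in all lists. In G1E-ER4+E2 replicate 1 the border was 0.273 kb from its end.

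Gata2R6 (88168967 to 88169500), in the threshold zone, was outside the peaks in every list. The nearest peak was 8.766 kb away in the G1E pooled list and 11.966 kb away in the G1E-ER4+E2 pooled list. Gata2NC2 (88272308 to 88272589), classed as inactive, lies outside the window and had a different pattern from the others. No G1E peak came within 54.107 kb of it, whereas peaks of G1E-ER4+E2 overlapped 93 of its 282 bases in replicate 1 and all of them in replicate 2. The peak over it was 5.4 kb in G1E-ER4+E2 replicate 1, 8.6 kb in replicate 2 and 18.2 kb in the pooled list, at percentiles of 26.5%, 18.1% and 24.2%.

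Altogether 6 of the 9 segments had H3K27ac in G1E and 7 in G1E-ER4+E2, with the same counts in the pooled list and in each replicate. Of the 272 segments at separate positions in the whole transfection table, 55.5% overlapped a G1E pooled peak and 66.5% a G1E-ER4+E2 pooled peak. In both cell lines these included all 3 enhancers, 1 of 2 segments in the threshold zone (Gata2R7), and Gata2R3 and Gata2NC1 among the 4 inactive ones. Over the whole table, the shares in G1E and G1E-ER4+E2 were 82.2% and 88.9% for enhancers, 65.2% and 67.4% for the threshold zone and 34.6% and 51.5% for inactive segments. None of the 8 segments in the window changed its call between the cell lines, and the only change was the gain at Gata2NC2. In the pooled lists 12.5% of the segments of the table gained a peak in this way and 1.47% lost one, so a gain at 1 of 9 segments is near the share over the table. Of all G1E-ER4+E2 pooled peaks, as given above, 40.3% had no overlapping G1E pooled peak. The gain at Gata2NC2 was not seen when the lists were restricted to peaks at or above their median enrichment or to equal covered length. The segments inside the *Gata2* domain share 1 peak, so their calls are not independent of each other.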

How the data were processed

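H3K27ac ChIP-seq (antibody Ab4729) was analysed from 6 lists of broad peaks, 1 for each of the 2 replicates of G1E and of G1E-ER4+E2 and 1 for the pooled replicates of each. The submitters' processing notes name bcl2fastq 1.8.4, Bowtie 1.0.0, SICER 1.1 and mm9, without parameters or the control. The authors deposited a fold enrichment (a ratio), a q-value (adjusted p-value) and an unadjusted p-value, not used here, for each peak. All q-values were below 0.01 and borders fell on multiples of 200 bp. How replicates were pooled is not given in the sources used here. Depth is unknown, so no interval that needs it was computed, and the spread between replicates may be technical. Positions are 1-based.

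The percentile of a peak is the percentage of its list with lower enrichment. Lengths, percentiles and the enrichment ratio were compared between the cell lines, with the replicates as samples, by two-sided exact permutation tests at a threshold of 0.05. The named items were all peaks in the window and all segments named for *Gata2*. The members and measures were chosen with earlier results of these data known. Alternatives were lists restricted to the median enrichment or to a q-value of at most 1e-10, equal covered length, the other kind of list (pooled or replicate), other overlap rules, a replicate block and leaving out each replicate. The percentile settings, the ratio of the 2 peaks with its alternatives, the covered length in the pooled lists, the share among regions of high G1E rank and the shares over all tested segments were added after seeing the data. The numeric activities of the segments were not used, nor was an mm9 genome or annotation, so segment sequences and positions relative to exons are not given. Interval arithmetic was tested on simulated data. Computations were run in Python 3.11.15 with SciPy 1.17.1 and pandas 2.3.3, and plots were drawn with Matplotlib 3.10.9.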

Additional observations from a re-analysis of the deposited data

How the results depend on the processing

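The change in percentile of the *Gata2* domain between the pooled lists, -21.5 percentage points, was -42.1 among peaks of at least 10.0 kb, -7.63 when peaks were ranked by enrichment times width, and -17.7 and -27.5 between the lists of replicate 1 and of replicate 2. It was -43.0 with peaks at or above the median enrichment of their list and -41.1 at equal covered length, but neither bears on its direction, since the former multiplies any such change by 2 and the latter removes only G1E-ER4+E2 peaks of low enrichment. The difference between the replicate means, -22.6, ranged from -27.3 to -17.8 without 1 replicate. The difference in the enrichment ratio to the upstream peak, -2.77, ranged from -3.76 to -1.77 without 1 replicate. The difference in covered length of the window, -3.0 kb, ranged from -6.4 to 0.4 kb without 1 replicate, and the direction was reversed to 0.4 kb without G1E-ER4+E2 replicate 2 and to 0.6 kb in the pooled lists. It was -5.2 kb with peaks at or above the median enrichment, -6.7 kb at equal covered length and -4.4 kb with q-values of at most 1e-10, each with exact p = 0.333 in place of 0.667. The lost length ranged from 4.2 to 9.4 kb and the gained length from 1.2 to 9.0 kb without 1 replicate, and in the pooled lists they were 7.8 and 8.4 kb; the cause was not tested. With the replicate block, that is with differences taken within a replicate number, the mean differences were -3.0 kb and -2.77 with p = 0.5 in the exact paired permutation test, the smallest it allows; the labels do not say that a replicate number marks a shared batch. The retained share of the window, 78.1%, ranged from 72.2% to 87.6% over its alternatives, and between single replicates it went down to 64.5%. Where replicate lists were used for these alternatives, a base in a peak of either G1E-ER4+E2 replicate counted as retained. The segment counts stayed at 6 in G1E and at 6 or 7 in G1E-ER4+E2. With 2 replicates and no read counts, changes in signal within a peak cannot be measured.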
